A study of Drosophila melanogaster with 2 samples.

Results

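The 8 subunit genes of the cytosolic chaperonin of Drosophila melanogaster, CCT1 to CCT8, were taken by their symbols in the Ensembl annotation of the dm6 (BDGP6) genome and are 8 of its 13945 protein-coding genes on the 6 chromosome arms. All 8 symbols matched. They were followed through peak lists of sunspot (ssp), a nuclear factor, for entries whose summit lay within 500 bp of an annotated transcription start site (TSS). The rule itself uses no measured value, but the genes were proposed with earlier results of these data known.

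The chaperonin, also called TRiC or CCT, is a stacked pair of rings that encloses a newly made protein and folds it with energy from ATP. Actin and tubulin are its best known clients, so dividing and growing cells depend on it. Each ring holds 1 copy of each of the 8 subunits, and the subunits are encoded by separate genes. Sunspot is known from fly genetics as a regulator of E2F genes downstream of Wingless signalling, the fly form of Wnt signalling.

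Chromatin immunoprecipitation followed by sequencing was done on whole embryos aged 0 to 24 h of transgenic flies whose ssp protein carried enhanced green fluorescent protein (eGFP), with an antibody against the tag. The labels give 1 group, with 2 biological replicates and no other genotype, stage or treatment, so every cell type and stage of embryogenesis was pooled and no test between groups was possible. The authors deposited a combined list of 4948 peaks, a conservative version of it with 4719 peaks, and a list for each replicate, with 3606 and 3437 peaks. The longer ranked list behind each one also holds the candidates that failed the threshold, 130840 entries in all for the combined list. The signal is the peak caller's own value for an entry, with a median of 133 among the combined peaks. The irreproducible discovery rate (IDR) of an entry is the estimated share of irreproducible entries among those ranked at least as high, and the lists were thresholded at 0.01. The lists give no read counts, so the depth behind each entry is unknown. At ssp itself 0 peaks lay within 2000 bp of the gene in any of the 4 lists.

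The chaperonin genes were not a group marked in common by ssp peaks. CCT8 and CCT6 had a peak in the combined list, and the other 6 had none within the window. An entry of any strength was present at 7 of the 8 genes, CCT4 being the exception, so 2 of 7 genes with a candidate were called, beside 28.8% of the 10362 protein-coding genes with a candidate. Over all genes the share was 2 of 8, beside 21.4%. Both shares were near the background, and nothing particular to the chaperonin was read from them.

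The peaks that were called lay well upstream of the chaperonin gene and closer to the start of a neighbour transcribed the other way. The CCT8 summit lay 473 bp upstream of the CCT8 start and 55 bp upstream of CG30349. The CCT6 summit lay 313 bp upstream of the CCT6 start and 104 bp upstream of CG8944. With each peak given to the closest start alone, 0 of 7 chaperonin genes had one, beside 21.3% of genes. With a window of 200 bp the count was 0 of 6, beside 31.5%. Across all 2984 genes with a combined peak the median summit lay 121 bp upstream of the start, with quartiles of 202 and 61.8 bp upstream, and 13.6% lay more than 300 bp away.

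**Figure D1:**
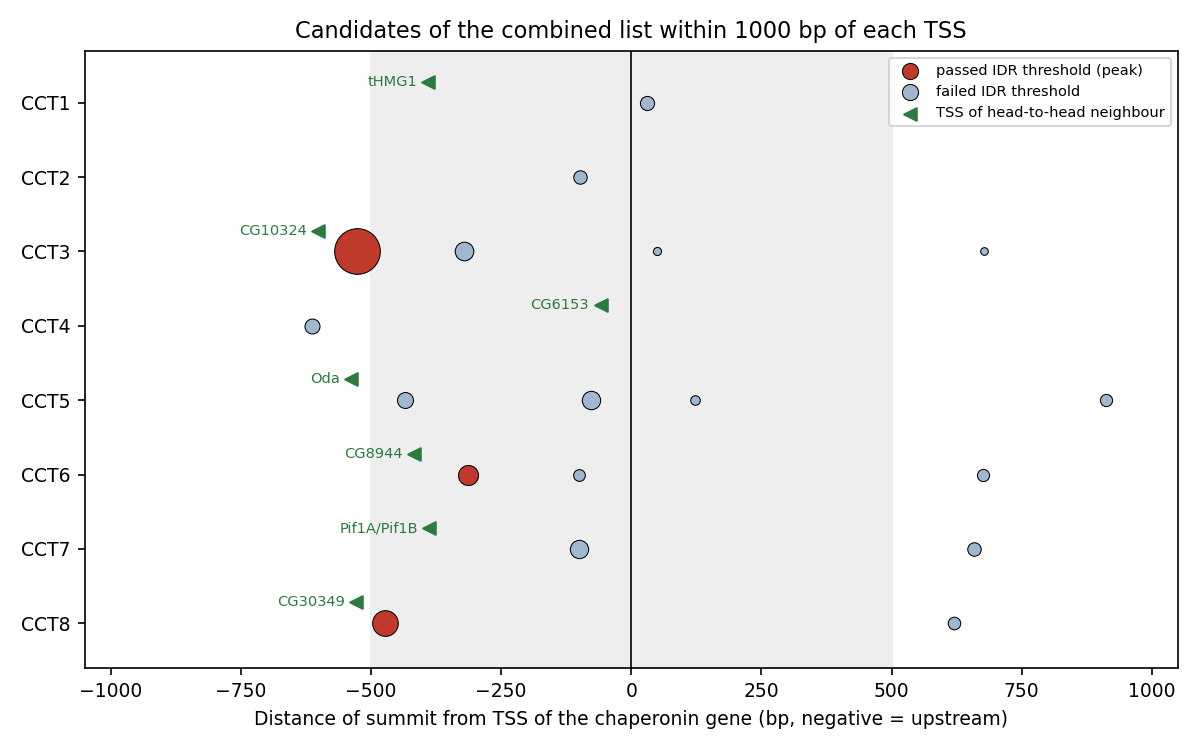
Distance in bp of every candidate of the combined list from the nearest start of each chaperonin gene, which is at 0, with transcription to the right. Circle area grows with signal, red circles passed the IDR threshold, blue ones failed, green triangles mark the start of the head-to-head neighbour and the grey band is the window of 500 bp. The red circles at CCT3, CCT6 and CCT8 stand beside the neighbour's start, and the entry at CCT3 lies 527 bp upstream, outside the band.

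The strongest peak near any chaperonin gene had its summit just outside the window. It lay at chr3R:16646925-16647251, 527 bp upstream of the start of CCT3 and 74 bp upstream of the start of CG10324, and is the value just outside the 500 bp limit as CCT8 is the one just inside. Its signal was 524 in the combined list, rank 500 of 4948. The IDR was given as 1e-05 in each ranked list although the signals differed, so this value may be a limit of the scale. In replicate 1 the signal was 277 at 553 bp upstream, rank 504 of 3606, and in replicate 2 it was 268 at 536 bp upstream, rank 463 of 3437. It was therefore a peak in each of the 4 lists. With a window of 1000 bp, CCT3, CCT6 and CCT8 were called, 3 of 8, beside 28.7% of genes.

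Inside the window, CCT3 kept only weaker entries that failed. A candidate 321 bp upstream had a signal of 79.4 and an IDR of 0.420 in the combined ranking, and it overlapped the strong peak at its upstream edge. The same entry had an IDR of 0.0411 in the conservative ranking. In the replicates it had a signal of 32.7 with an IDR of 0.0480 and of 24.8 with an IDR of 0.839. A further entry 50 bp into the gene had a signal of 7.86.

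At CCT6, on chromosome X between 15746648 and 15748971 on the plus strand, the combined peak covered chrX:15746127-15746542. Its signal of 94.0 placed it at rank 3567 of 4948, in the lower part of the list, and its IDR was 0.00280. In replicate 2 there were 2 peaks, with a signal of 49.5 at 333 bp upstream and 23.6 at 70 bp upstream, and IDR values of 0.00704 and 0.00706. The second of these overlapped the start of CCT6 itself. In replicate 1 the candidate 286 bp upstream had a signal of 37.5 and an IDR of 0.459, so it failed. The peak at CCT6 thus passed in the combined, conservative and replicate 2 lists and failed in replicate 1. An annotated insertion of the transposable element jockey2, 152 bp long, lies wholly inside the combined peak and starts 8 bp after its summit, and the part of repeated sequence in the signal was not tested.

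CCT7 stood at the threshold, and its entry lay closer to its own start than to the neighbour's. The gene is on the plus strand of chromosome 3R, from 8801564 to 8806234, and shares its upstream region with Pif1A and Pif1B, whose common start is 388 bp away. The entry chr3R:8801256-8801671 had its summit 100 bp upstream of CCT7 and 288 bp from the start of Pif1A and Pif1B. Its signal was 76.6 in both series lists. Its IDR was 0.0138 in the combined ranking, where it failed, and 0.00611 in the conservative ranking, where it passed at rank 4161 of 4719. Neither replicate passed on its own, with a signal of 38.0 and an IDR of 0.120 in replicate 1 and a signal of 37.2 and an IDR of 0.117 in replicate 2. In the conservative list 3 of 7 genes were called, CCT6, CCT7 and CCT8, beside 28.4% of genes.

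The reference sequence within 50 bp of the summit is shown for the 3 entries above because they place the strong peak (CCT3), the replicate-dependent peak (CCT6) and the peak at the threshold (CCT7) on the DNA. Each is 101 bases of the dm6 plus strand, 5′ to 3′, and capitals mark matches to any of the motifs searched.
CCT3, chr3R:16647028-16647128: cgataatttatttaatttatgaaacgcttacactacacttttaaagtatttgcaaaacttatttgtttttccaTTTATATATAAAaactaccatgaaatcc
CCT6, chrX:15746285-15746385: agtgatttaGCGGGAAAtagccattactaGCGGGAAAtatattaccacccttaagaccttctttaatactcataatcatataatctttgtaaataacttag
CCT7, chr3R:8801414-8801514: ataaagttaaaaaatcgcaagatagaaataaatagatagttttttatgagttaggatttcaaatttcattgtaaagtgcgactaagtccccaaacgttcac
The CCT6 window holds GCGGGAAA at 2 places, beginning 41 and 21 bp before the summit on this strand. This is the reverse complement of TTTCCCGC, a form of the site bound by E2F, a family of cell-cycle transcription factors. An E2F site (TTTGGCGC, TTTCCCGC, TTTCGCGC or TTTGCCGC, either strand) was present within 50 bp of the summit in 1.41% of the 2338 combined peaks at a protein-coding TSS. The CCT3 window holds TATAAA, the TATA box, once on each strand in adjoining copies, a motif found at 21.0% of these summits. The CCT7 window held no match to the 9 motifs. A match is a stretch of letters and was not shown to be a bound site.

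CCT8, on the minus strand of chromosome 2R from 8904844 to 8906990, had the best supported peak inside the window. The combined peak at chr2R:8907255-8907670 had a signal of 159.6, rank 2003 of 4948, and an IDR of 0.000147. Its IDR was 0.000252 in the conservative ranking. In replicate 1 the signal was 68.0 at 447 bp upstream, rank 2693 of 3606, with an IDR of 0.000999. In replicate 2 it was 83.7 at 456 bp upstream, rank 1778 of 3437, with an IDR of 7.87e-05. CCT8 was the single chaperonin gene called in replicate 1, 1 of 7, beside 24.9% of genes. It was also the single one whose combined peak lay above the list's median signal, 1 of 7, beside 19.1%.

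CCT5 was called only in replicate 2. The gene lies on the plus strand of chromosome 2R from 12174802 to 12177516, has 2 annotated starts, and faces Oda, which encodes ornithine decarboxylase antizyme, a regulator of polyamine levels. The replicate 2 peak had a signal of 47.7, rank 3086 of 3437, with an IDR of 0.00222, and its summit lay 82 bp upstream of CCT5 and 456 bp from the start of Oda. The matching combined candidate, 77 bp upstream, had a signal of 77.7 and an IDR of 0.0383, and its IDR in the conservative ranking was 0.196. Replicate 1 had a signal of 29.3 at 110 bp upstream with an IDR of 0.162, and a slightly higher signal of 33.1 at 432 bp upstream, next to Oda, with an IDR of 0.124. In replicate 2 CCT5, CCT6 and CCT8 were called, 3 of 6, beside 29.6% of genes.

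CCT1, CCT2 and CCT4 had no peak in any list. CCT1, on the minus strand of chromosome 3R from 22489105 to 22491439, had a combined candidate 30 bp inside the gene with a signal of 42.4 and an IDR of 0.645. Both replicates had an entry there, each with a signal of 20.4, and with IDR values of 0.783 and 0.805. CCT2, on the plus strand of chromosome X from 9089513 to 9092826, had a signal of 37.3 at 98 bp upstream with an IDR of 0.713. In replicate 1 the value was 15.0, and replicate 2 held no entry in the window. CCT4, on the minus strand of chromosome 2L from 12690336 to 12692934, had its nearest combined candidate 613 bp upstream, with a signal of 48.8 and an IDR of 0.317. The nearest entries of the replicates lay 585 and 675 bp upstream, with signals of 30.0 and 19.6.

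Ordered by the strongest candidate in the window of the combined list, the signals were 159.6 at CCT8, 94.0 at CCT6, 79.4 at CCT3, 77.7 at CCT5, 76.6 at CCT7, 42.4 at CCT1 and 37.3 at CCT2. CCT8 was the highest and CCT1 and CCT2 the lowest in each replicate, with CCT2 absent from replicate 2. The 4 genes between them changed places. Replicate 1 gave 38.0 at CCT7, 37.5 at CCT6, 33.1 at CCT5 and 32.7 at CCT3, and replicate 2 gave 49.5 at CCT6, 47.7 at CCT5, 37.2 at CCT7 and 24.8 at CCT3. CCT6 stood above CCT5 in all 3 lists and CCT5 above CCT3 in both replicates, while CCT7 changed place with CCT6 and CCT5, and CCT3 stood above CCT5 in the combined list.

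**Figure D2:**
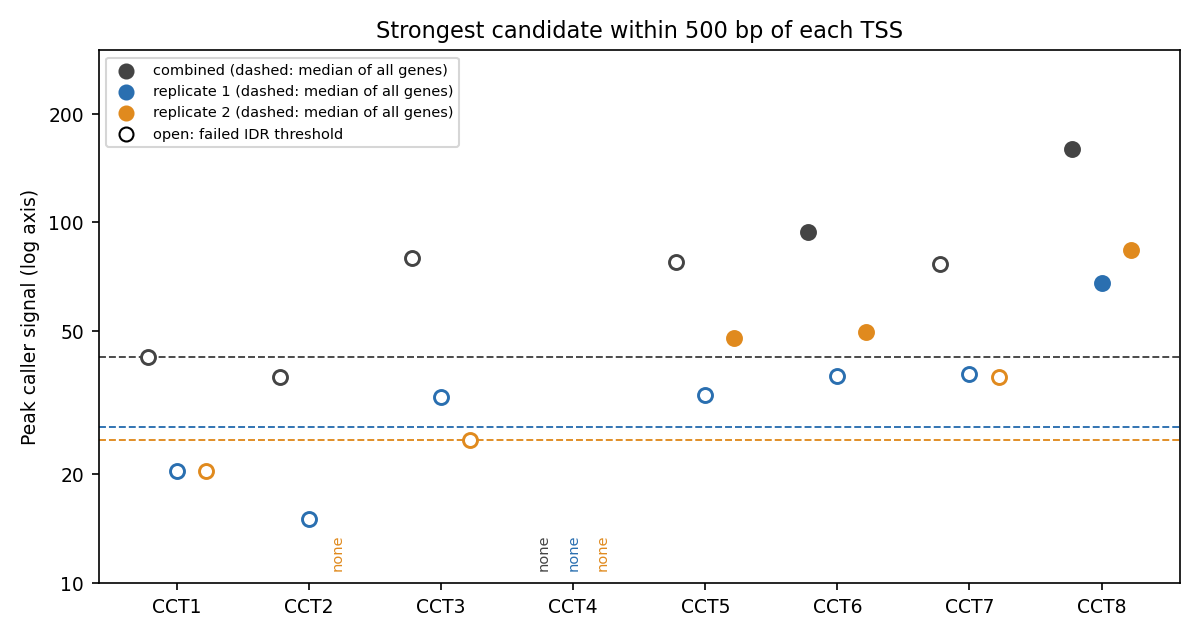
Signal of the strongest candidate within 500 bp of a start of each chaperonin gene in the combined list and in each replicate, on a log axis. Filled points passed the IDR threshold, open points failed, dashed lines are the median over all protein-coding genes with a candidate in the same list, and "none" marks a gene with no candidate. CCT8 is filled in all 3 lists, CCT6 in 2 and CCT5 in replicate 2 alone.

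In the combined list the entries at 5 of the genes were stronger than those at most genes, although 3 of these failed. The entries at CCT8, CCT6 and CCT3 lay nearer to the neighbour's start, 55, 104 and 280 bp from it. Those at CCT5 and CCT7 lay nearer to their own. Among the 10362 genes with a combined candidate, the percentile of the strongest signal was 83.3 for CCT8, 74.2 for CCT6, 71.3 for CCT3, 70.8 for CCT5, 70.5 for CCT7, 50.1 for CCT1 and 43.2 for CCT2. The percentile of CCT2 was 18.9 and that of CCT1 was 34.4 in replicate 1, and in replicate 2 that of CCT3 was 49.9, at the gene median. The median over the 7 genes was 77.7, beside 42.3 over all genes, and 6 of the 7 lay above that gene median. CCT1 lay next to it, and in the conservative list, where it lay below, the count was 5. In replicate 1 the medians were 33.1 and 27.1, with 5 of 7 genes above, and in replicate 2 they were 42.4 and 24.9, with 4 of 6 above. These medians leave out genes without a candidate.

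**Figure D3:**
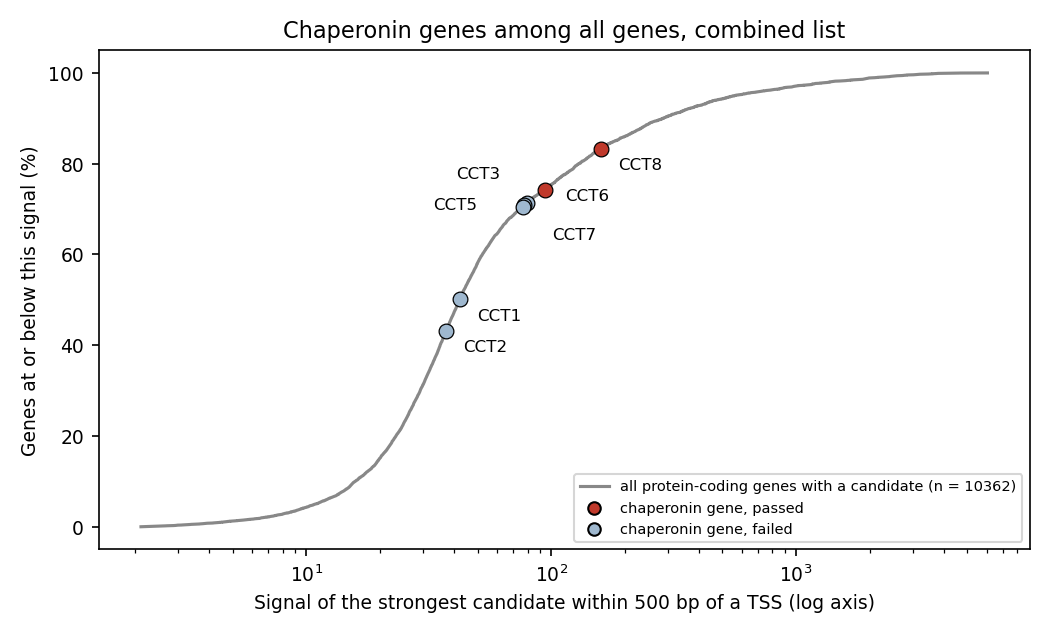
Cumulative share in percent of the 10362 protein-coding genes against the signal of their strongest candidate in the combined list, on a log axis. The grey line is all genes and the points are the 7 chaperonin genes with a candidate, red where it passed the IDR threshold. CCT3, CCT5 and CCT7 sit together between percentiles 70.5 and 71.3, just below CCT6 at 74.2.

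The replicates could be set side by side at 6 of the genes. There the log2 ratio of replicate 2 to replicate 1 had a median of 0.15 and an SD of 0.34, and the strongest entries overlapped at all 6. Of 7285 protein-coding genes with a candidate in both replicates, 6261 had overlapping strongest entries. Over those 6261 the median was -0.24 and the SD 0.66. The ratio at the chaperonin genes ranged from -0.40 at CCT3 to 0.53 at CCT5, where the strongest entries of the replicates had summits 350 bp apart. These ratios include any difference in scale between the lists. Of the combined peaks at CCT6 and CCT8, the one at CCT8 overlapped a peak in both replicates and the one at CCT6 a peak in replicate 2 only. Among all 2338 combined peaks at a protein-coding TSS, 69.1% overlapped a peak in both replicates, and among the 896 of them below the list's median signal, as at CCT6, the share was 26.9%.

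The genes shared a promoter arrangement that the choice of genes did not use. A protein-coding gene on the other strand started upstream within 1000 bp of 7 of the 8, CCT2 being the exception, beside 36.2% of all protein-coding genes. The distances were 59 bp from CCT4 to CG6153, 388 bp from CCT7 to Pif1A and Pif1B, 390 bp from CCT1 to tHMG1, 417 bp from CCT6 to CG8944, 528 bp from CCT8 to CG30349, 538 bp from CCT5 to Oda and 601 bp from CCT3 to CG10324. tHMG1 encodes a testis-expressed protein with an HMG box, a DNA-binding domain.

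Genes in such pairs carried combined peaks more often than other genes, but a summit within 500 bp of both starts was counted for both genes. How much of the difference comes from this counting was not tested. A peak was called at 46.0% of the 4185 head-to-head genes with a candidate and at 17.1% of the 6177 others. For starts 301 to 600 bp apart, the spacing of CCT1, CCT5, CCT6, CCT7 and CCT8, it was 52.3%, beside 2 of these 5. For starts up to 300 bp apart, as at CCT4, it was 47.1%, and for starts 601 to 1000 bp apart, as at CCT3, it was 28.7%. Where a head-to-head gene had a peak, its summit was nearer to the partner's start in 43.0% of cases, 829 of 1927 genes. For starts 301 to 600 bp apart the share was 45.8%, and for starts up to 300 bp apart it was 47.1%. With starts 601 to 1000 bp apart, as at CCT3, it was 9.29%, 17 of 183 genes. Both of the called chaperonin genes had the summit nearer to the partner. A summit counted for both genes of a pair is nearer the partner for at most 1 of them. How far this counting sets these shares was not tested. The spacing classes and the 300 bp limit above were set after the positions were seen.

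The second shared feature was a short sequence close to the start. All 8 promoters, taken from 250 bp before to 50 bp after the TSS, held ATCGAT, which is the same on both strands and is the core of the DNA replication-related element (DRE), the site of the fly factor DREF that acts at many genes for growth and replication. The core was present in 23.0% of the 13945 promoters. Counted to its first base, a copy lay 21 bp before the start at CCT2, 32 at CCT3, 34 at CCT5 and 36 at CCT7. Such a copy lay 38 bp before the start at CCT4, 39 at CCT8 and 42 at CCT6. Further copies lay 139 bp before the start at CCT2, 238 and 7 bp before it at CCT7, and 12 bp after it at CCT3. At CCT1 both copies were farther away, 196 and 186 bp before the start. A core in the last 50 bp before the start was thus present at 7 of 8 genes, beside 10.3% of promoters, a range chosen after the positions were seen. The full element TATCGATA was present at CCT2 and CCT5, beside 9.23% of promoters.

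**Figure D4:**
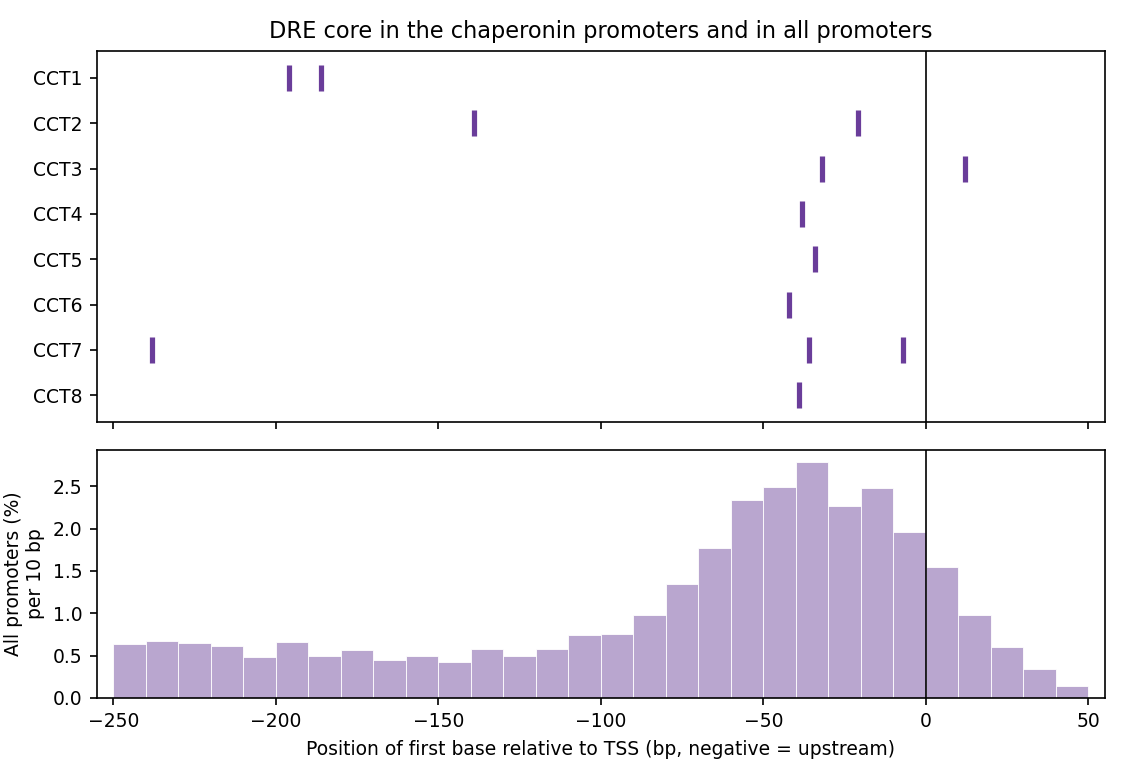
Position in bp of the first base of each DRE core relative to the start, at 0, in the 8 chaperonin promoters (upper panel, 1 tick a copy) and the percentage of all 13945 promoters with a core in each bin of 10 bp (lower panel). In 7 chaperonin promoters a tick lies between 21 and 42 bp before the start, in the same region as the maximum over all promoters.

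The stretch of 60 bases that holds the core is shown for 6 of the genes. In 5 of them the core lies close before the start, and CCT1 is shown as the exception. Each runs 5′ to 3′ on the strand of the gene in dm6, ends at the base before the start except at CCT1, where it runs from 216 to 157 bp upstream, and has ATCGAT in capitals.
CCT1, chr3R:22491596-22491655, minus strand: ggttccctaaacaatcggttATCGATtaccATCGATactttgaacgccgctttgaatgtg
CCT2, chrX:9089453-9089512, plus strand: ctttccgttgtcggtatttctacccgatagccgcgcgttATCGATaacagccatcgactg
CCT3, chr3R:16647545-16647604, plus strand: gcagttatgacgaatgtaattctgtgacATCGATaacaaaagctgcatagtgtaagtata
CCT4, chr2L:12692935-12692994, minus strand: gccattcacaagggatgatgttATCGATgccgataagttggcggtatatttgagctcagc
CCT6, chrX:15746588-15746647, plus strand: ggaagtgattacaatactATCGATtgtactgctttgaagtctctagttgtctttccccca
CCT7, chr3R:8801504-8801563, plus strand: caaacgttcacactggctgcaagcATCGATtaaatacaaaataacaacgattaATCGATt
At CCT4 these bases span the space between its start and that of CG6153, so the core there lies before both genes.

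The summits called at CCT8 and CCT6 were far from any copy of this core, and the summit upstream of CCT3 was close to one. Counted to the nearest base of the nearest copy in the genome, the distance was 434 bp at CCT8 and 271 bp at CCT6. It was 47 bp for the peak upstream of CCT3, where the copy lies outside the CCT3 promoter window, begins 579 bp before the CCT3 start and belongs to a full TATCGATA whose last bases open the summit window shown above. For the other entries it was 64 bp at CCT7, 48 bp at CCT5 in replicate 2, 36 bp for the failing entry at CCT2 and 211 bp for the failing entry at CCT1. Within 100 bp of the summit the core was present at 4 of these 7 entries (CCT2, CCT3, CCT5 and CCT7), beside 22.1% of combined peaks at a protein-coding TSS. The entries come from different lists, and where the core lies close before a start, the distance is largely set by how far the summit lies from that start. Of all combined peaks at a protein-coding TSS, 12.1% had the core within 50 bp of the summit, and 0 of the 2 at CCT6 and CCT8 did. Within 100 bp the core was likewise present at 0 of these 2 peaks, beside the 22.1%. Genes with the core in the promoter had a combined peak in 38.6% of 2549 cases, beside 25.6% of the 7813 without it, and 2 of the 7 chaperonin genes with a candidate were called.

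The other motifs were spread thinly. A pair of heat shock units, GAANNTTC on either strand, was present in the promoters of CCT2 and CCT8, beside 9.33% of promoters. CAGCTG, an E-box, was present at CCT5 and CCT7, beside 17.8%, and CACGTG at 0 genes, beside 4.20%. Ohler motif 1, GGTCACACT, was present at CCT6, beside 6.07%. GAGAG was present at CCT1, CCT3 and CCT4, beside 30.2%. TATAAA, the letters of the TATA box, was present at CCT1, CCT3 and CCT5, beside 45.5%. The matches began at -79 and -71 bp from the start at CCT1, -188 bp at CCT3 and -180 bp at CCT5. They were not shown to be working TATA boxes. The E2F site was present in 0 of the 8 promoters, beside 6.58%, since the copies near the CCT6 summit lie outside that window. The median GC content of the 8 promoters was 36.2%, beside 38.0% over all promoters.

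The partners and clients of the chaperonin, and the separate mitochondrial chaperonin, were followed in 5 lists of 34 genes. Of these, 22 had a candidate and 11 a combined peak, beside 28.8% of all genes with a candidate. The lists were chosen with earlier results known and were not tested. The counts for each list below are over all of its genes and stand beside 21.4% of all protein-coding genes. Prefoldin, the complex that hands unfolded actin and tubulin to the chaperonin, had a peak at 3 of 6 genes: mgr with a signal of 473, Pfdn6 with 200.3 and Pfdn2 with 99.9. The mgr peak lay nearer to another gene's start. Of the tubulin cofactors, which assemble tubulin dimers after folding, 1 of 5 had a peak, Tbcd with a signal of 296 at 70 bp upstream.

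Among the clients, 3 of 6 actin genes and 2 of 11 tubulin genes had a combined peak. The actin genes were Act42A with a signal of 202, Act5C with 145 and Act87E with 107, and the Act87E peak was in neither replicate list. The tubulin genes were gammaTub23C, a tubulin of the microtubule organising centre, with 288, and alphaTub84B with 124. In the mitochondrial chaperonin, which folds proteins inside that organelle, 2 of 6 genes had a peak, CG11267, the Hsp10 lid, with 157 and Hsp60A with 97.4. Of the genes named from these lists, Pfdn2, Act5C and Hsp60A had a replicate peak in replicate 2 only, and alphaTub84B in replicate 1 only. The remaining ones, apart from Act87E, had a peak in both. In replicate 1 the count was 7 of 34, beside 2515 of all 13945 protein-coding genes, and in replicate 2 it was 9 of 34, beside 2417.

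The peaks at protein-coding starts whose combined signal was closest to that of CCT8, at rank 1223 of 2338, also lay between 2 genes. The one directly above, with a signal of 159.64, lay 46 bp upstream of HSPC300, a subunit of the SCAR complex that drives actin branching, and 482 bp upstream of CG3163. Its replicate signals were 86.1 and 67.0, so its listed signal was higher in replicate 1 where that of CCT8 was higher in replicate 2. The one directly below, with 159.59, lay 136 bp upstream of CG4972 and 260 bp upstream of Usp14, which encodes a deubiquitinase of the proteasome. The replicate peaks overlapping it had signals of 160.1 and 170.1, above those at CCT8, 68.0 and 83.7. Their summits lay -189 and -199 bp from its summit in chromosome position, so the likeness to CCT8 was in the combined signal only.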

How the data were processed

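Peak lists of 2 biological replicates of ssp-eGFP embryos were used. Per the deposited notes, the authors called peaks on dm6 from the alignments of each replicate or of both, with a control, and ranked them by IDR. The aligner and peak caller are not stated in the sources used here. Each deposited signal is the peak caller's value per entry, with no scaling between lists stated. The deposited score is the IDR score, capped at 1000, and a second score in the ranked lists is minus log10 of the global IDR. All listed peaks had an IDR at or under 0.01, and 198 combined candidates under it were not listed. Columns not used include those after the global IDR in the combined and conservative ranked lists, 16 in total over both lists.

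Summits were assigned to every protein-coding gene of Ensembl release 115 with a TSS within 500 bp, counting positions from 1. The background is the share of genes with a candidate in the same ranked list that had a peak. Reference bases came from the RefSeq genome of the same build, where 99.8% of 30593 annotated start codons read ATG, and 9 motifs were sought on both strands. The named genes were the 8 subunit genes, genes starting within 500 bp of their entries, up to 4 genes per partner list with the highest signals, ssp, and the genes directly above and below CCT8 in signal. Head-to-head neighbours beyond that distance were named after their values were seen. The subunit genes and all lists were chosen with earlier results of these data known, so no test was run. Alternatives were the conservative list, each replicate alone, windows of 200 and 1000 bp, the upper part of the list by signal, the nearest TSS only, all genes as denominator, 50% reciprocal overlap, summits within 100 bp, promoters of 100 bp each side and 100 bp each side of the summit. Window assignment and motif search were tested on simulated data. Python 3.11.15, pandas 2.3.3, numpy 2.4.6, pyfaidx 0.9.0.4 and matplotlib 3.10.9 were used.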

Additional observations from a re-analysis of the deposited data

How the results depend on the processing

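The count of chaperonin genes with a combined peak, 2, ranged from 1 to 3 when either replicate was left out. It was 1 for peaks above the median signal, 0 with a window of 200 bp and 0 when only the nearest TSS counted. The genes themselves differed: CCT8 alone was called without replicate 2, and CCT5, CCT6 and CCT8 without replicate 1. The count of 11 genes in the partner, client and mitochondrial chaperonin lists ranged from 7 to 9 with a replicate left out. It was 7 for peaks above the median signal. The share of protein-coding genes with a peak, 28.8%, ranged from 24.9% to 29.6% with a replicate left out. It was 19.1% above the median signal, 21.3% with the nearest TSS and 21.4% over all protein-coding genes. The median summit of called chaperonin genes, -393 bp, ranged from -447 to -333 bp with a replicate left out, and 1 of 2 peaks was shared by the replicates under each definition of overlap. Within 100 bp of the TSS the DRE core was present at 7 of 8 genes, beside 18.6% of promoters. There CAGCTG was present at 0 genes, beside 13.7% of promoters, and TATAAA at 1, beside 28.9%. No paired analysis was possible because there is 1 group. With 2 replicates, no counts and 8 genes, the lists allow no interval on any signal.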

Other observations

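No combined peak had its summit inside any of the 8 chaperonin genes. Combined candidates that failed were present in each gene body, from 2 in CCT6 to 6 in CCT7. For the genes without a peak in the window other than CCT3, the nearest combined peak lay past the end of the gene at CCT5, 3548 bp downstream of its second start, with a signal of 105, 8336 bp upstream at CCT2, with 177, 10136 bp downstream of the start at CCT7, with 616, 11660 bp upstream at CCT4, with 178, and 22128 bp downstream of the start at CCT1, with 195.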
